A study of Saccharomyces cerevisiae with 21 samples.

Results

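Loss of Snf2, the ATPase of the yeast chromatin remodeler Swi/Snf, was compared with wild-type SNF2 over 6394 of the 6407 genes of Saccharomyces cerevisiae in the deposited table of levels. A gene entered when it reached at least 1 TPM in at least 3 of the 6 libraries compared, where TPM, the unit of the deposited table, is the level of a transcript per length, scaled to the same total in every library. The 6 libraries are the 3 of the group snf2del and the 3 of the group SNF2, out of 21 libraries in 7 groups. The choice of genes used their level in the 6 libraries together. It let in 41 genes that were under 1 TPM in all SNF2 libraries and at 1 TPM or more in all snf2del libraries, LEU2, ADH7 and DSF1 among them, and 3 of the reverse kind; these entered only through the group where they were high and had to differ, so their p-values support nothing.

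Swi/Snf uses the energy of ATP, hydrolysed by Snf2, to slide or remove nucleosomes, which uncovers or covers DNA where transcription factors bind. Its subunits were found in yeast through mutants that could not switch mating type, since they failed to express the HO endonuclease, and through mutants that could not ferment sucrose, since they failed to induce the invertase gene SUC2. The complex is also known for a part in transcriptional interference, the subject of the series: at the serine biosynthesis gene SER3, transcription of the noncoding RNA SRG1 across the SER3 promoter keeps that promoter covered and SER3 low when serine is plentiful.

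All strains were in the W303 background. In both groups the chromosomal SNF2 gene was deleted. The group SNF2 carried a wild-type copy written as SNF2::LEU2, and the group snf2del carried LEU2 with no copy, so the control was a deletion strain with the gene put back and not an unmodified strain. A second pair was built in the same way for the structural subunit Swi3, namely SWI3 (swi3 deletion with SWI3::LEU2) and swi3del (swi3 deletion with LEU2), and 2 more groups carried a SNF2 copy with a point mutation, snf2-W935R or snf2-Q928K. Cells were grown in YPD, a rich medium with glucose, to mid-log phase and filtered, with the 3 biological replicates taken on separate days. Poly(A) RNA was sequenced from a kit that keeps the strand. The labels do not say whether a group was 1 clone, and they do not give the mating type.

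The 21 libraries held between 6311 and 6393 genes at 1 TPM or more, and log2 levels of replicates within SNF2 and snf2del correlated at 0.988 to 0.992 across genes. The file of levels keeps no read numbers, so the depth is unknown. Values below are means ± SD over n = 3 libraries, and log2 changes are snf2del over SNF2 on the scale of log2(TPM + 1) ± SE, with p-values from limma adjusted over all 6394 genes. The change of a gene with a low level is understated on this scale. The 3 values of a group are given in the order of replicates 1, 2 and 3, and a gene was called when its adjusted p was under 0.05.

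The level of SNF2 was not analysed here, so the deletion was not checked on the deleted gene. LEU2, the leucine biosynthesis gene that marks both genotypes, stood at 0.219, 0.237 and 0.552 TPM in the SNF2 libraries and at 141, 174 and 138 TPM in the snf2del libraries. All 3 deletion libraries thus lay above all 3 controls, with a log2 change of 6.83 ± 0.14, and LEU2 was at 0.226 ± 0.0886 TPM in SWI3 and at 136 ± 1.84 TPM in swi3del. The level in SNF2 and in SWI3 goes against genotype labels that name LEU2 for every group of both pairs, so what the LEU2 values measure in these strains is uncertain, and the part of the marker in other changes was not tested. SWI3, whose deletion neither SNF2 genotype names, fell from 44.6 ± 0.781 to 33.4 ± 1.52 TPM (limma adjusted p = 0.000583, log2 -0.41 ± 0.07), a fall that was not called against the SWI3 libraries as control (log2 -0.15, adjusted p = 0.112). The markers of mating type were mainly those of MATa cells: STE2, the receptor for alpha factor, stood at 436 ± 38.1 TPM in SNF2 and the a-factor gene MFA2 at 425 ± 22.3 TPM, while STE3, the receptor that alpha cells carry, stood at 0.748 ± 0.417 TPM. The summed mean level in SNF2 was 1199 TPM over the 7 MATa genes and 31.41 TPM over the 3 MATalpha genes tested. Of the 5 genes taken as marks of a sporulating culture (SPO11, HOP1, DMC1, SPS4 and DIT1), SPS4 was highest in SNF2, at 9.65 ± 0.363 TPM.

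Most of the transcriptome differed between the groups. Of the 6394 genes, 3160 (49.4%) were called higher and 1548 (24.2%) lower in snf2del, together 4708 (73.6%). Without the 44 genes that entered through 1 group only, 3120 were higher and 1546 lower. By 2-fold or more, 1266 genes (19.8%) were higher and 396 (6.19%) lower, and the libraries of the 2 groups did not overlap for 4946 genes (77.4%). The largest rises in level after LEU2 were those of PIR3, the short open reading frame YJL133C-A, ADH7, AAC1, IMD2, YPR078C, GUT2, DSF1 and RTS3, with log2 changes of 4.31 to 5.88. The 10 largest falls were those of YHB1, SPL2, PHM6, PHO84, PHO12, PHO11, HO, INA1, RPL22A and PHO89, with log2 changes of -5.24 to -3.56. Phosphate genes made up 6 of these 10. In a bulk culture, fewer cells that express a gene and less RNA of it per cell cannot be told apart.

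The balance of rises and falls depended on how the libraries were scaled. The median log2 change over all genes was 0.26 in the deposited TPM, and 0.003 after median-ratio scaling, which gave 2373 genes higher and 2361 lower, and 50.1% of the calls were then rises in place of 67.1%. Quantile normalization gave 2230 higher and 2494 lower. The rises and falls were spread unevenly over the range of levels, as the plot of change against level shows. Among the 204 genes with a mean of 1000 TPM or more, 40 rose and 128 fell (median log2 change -0.57), whereas among the 568 genes under 10 TPM, 338 rose and 30 fell (median 0.79). A gene group is therefore described below by its counts and by its median beside the median of all genes, 0.26.

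**Figure D1:**
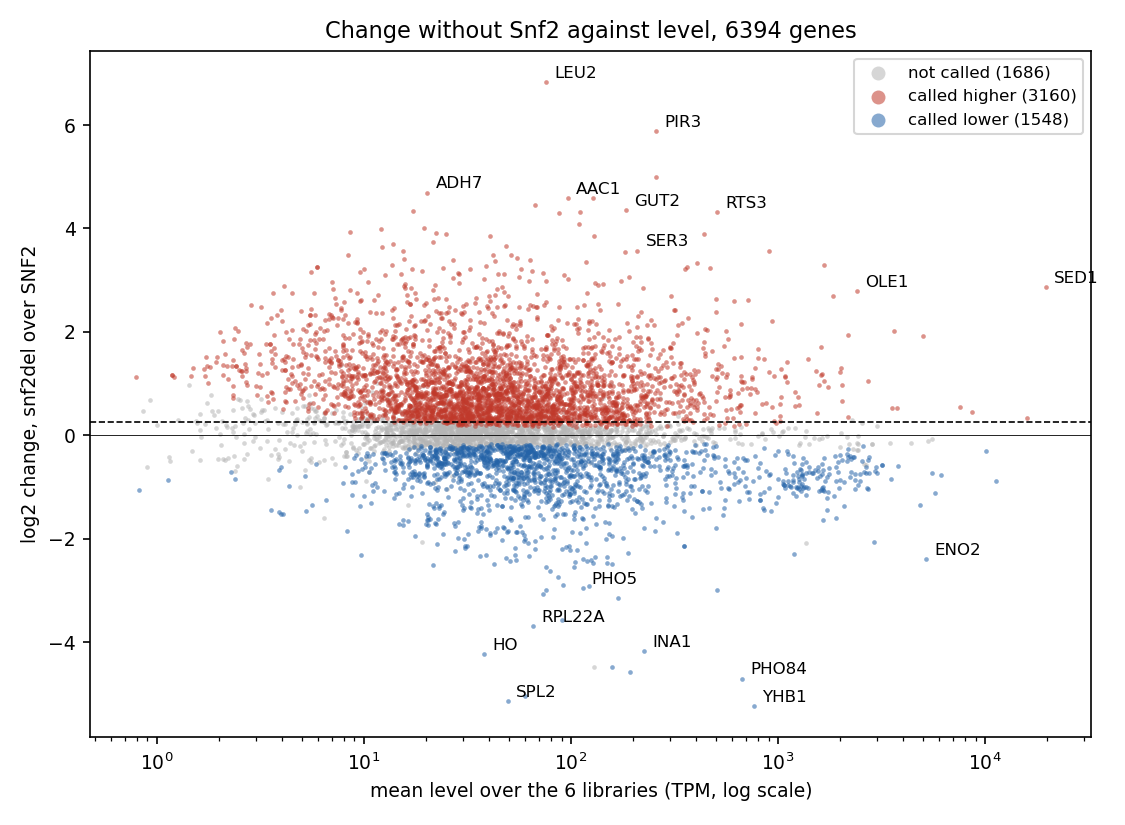
Log2 change in snf2del over SNF2 (y axis) against the mean level over the 6 libraries in TPM (x axis, log scale) for 6394 genes. Genes called higher are red, genes called lower are blue, uncalled genes are grey, and the dashed line is the median change of all genes, 0.26. Rises outnumber falls at low levels and falls outnumber rises above 1000 TPM.

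SER3, the first enzyme of serine biosynthesis from glycolysis (chrV:322686-324095, plus strand, R64), was far higher without Snf2. It stood at 33.4, 33.6 and 27.8 TPM in the SNF2 libraries and at 369, 393 and 395 TPM in the snf2del libraries. All 3 deletion libraries lay above all controls, 12.2-fold by the means, with a log2 change of 3.57 ± 0.09 (limma adjusted p = 4.36e-09). SRG1, the noncoding RNA transcribed across the SER3 promoter, was also listed higher. It stood at 34.4, 30.7 and 33.6 TPM in SNF2 and at 57.9, 40.2 and 46.1 TPM in snf2del. All 3 deletion libraries were higher, with a log2 change of 0.52 ± 0.12 (limma adjusted p = 0.00377). After median-ratio scaling this rise was 0.26 and no longer called (adjusted p = 0.0787). SRG1 ends inside SER3, and the 2 share 77 bases on the same strand, so that reads of SER3 in that stretch could have been counted for SRG1. The part of this in the level of SRG1 was not tested, so whether SRG1 itself rose or fell is uncertain. The stretch upstream of SER3 that SRG1 crosses is shown for its position, and its part in either change was not tested. It covers the bases 300 to 81 before the SER3 start (chrV:322386-322605, plus strand, R64) and lies wholly within SRG1, which runs from base 322212 to 322762 of chromosome V.
SER3 promoter: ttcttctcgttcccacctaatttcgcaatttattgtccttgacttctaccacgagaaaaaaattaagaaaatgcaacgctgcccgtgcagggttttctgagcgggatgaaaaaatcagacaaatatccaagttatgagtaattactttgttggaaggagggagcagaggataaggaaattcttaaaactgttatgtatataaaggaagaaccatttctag

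Other serine genes changed little. SER33, which codes for the same enzyme activity as SER3 without the SRG1 promoter, stood at 130.2, 128 and 120.2 TPM in SNF2 and at 130.0, 139 and 133 TPM in snf2del, a log2 change of 0.09 ± 0.07 that was not called (adjusted p = 0.259) and that turned to -0.18 after median-ratio scaling (adjusted p = 0.0447). Of the 8 genes of the serine list, 3 rose and 1 fell (median log2 change 0.10; 2 rose and 3 fell after median-ratio scaling, median -0.17). SHM2, the cytosolic enzyme that turns serine into glycine, rose from 665 ± 93.4 to 1011 ± 52.7 TPM (log2 0.61 ± 0.11, adjusted p = 0.000551), and SER2, the last enzyme of serine synthesis, fell from 119 ± 4.88 to 103 ± 3.26 TPM (log2 -0.22 ± 0.07, adjusted p = 0.015, and 0.053 without SNF2 replicate 1). The levels of SER3 in the point mutants were 42.2 ± 0.470 TPM in snf2-W935R and 998 ± 54.2 TPM in snf2-Q928K, which put snf2-Q928K above the deletion and snf2-W935R far below it.

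HO, the endonuclease that starts mating-type switching (chrIV:46271-48031, minus strand, R64), fell to a few TPM. Its level was 76.0, 69.7 and 74.4 TPM in the SNF2 libraries and 3.20, 3.15 and 2.51 TPM in the snf2del libraries. No library of one group came near the other, and the log2 change was -4.24 ± 0.11 (limma adjusted p = 4.67e-09), a 24.8-fold fall of the mean. Of the 9 other genes of the HO list none rose and 2 fell (median of all 10 -0.03). ASH1, a repressor of HO in daughter cells, fell from 112 ± 3.69 to 59.2 ± 0.540 TPM (adjusted p = 1.43e-06) and ADA2, a subunit of the SAGA acetyltransferase, from 32.5 ± 1.57 to 27.7 ± 1.78 TPM (adjusted p = 0.0344, and 0.0615 to 0.11 when any 1 of 4 libraries was left out: SNF2 replicate 1 or 3 or snf2del replicate 1 or 3), and under median-ratio scaling 7 of the 10 genes of the list were called lower. SWI5, the activator that recruits Swi/Snf to HO, stood at 46.2 ± 3.42 TPM in SNF2 and 44.9 ± 4.48 TPM in snf2del and was not called (adjusted p = 0.705; log2 -0.30, adjusted p = 0.0123, after median-ratio scaling).

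Genes for the separation of daughter cells fell alongside HO. Of 10 such genes, a list chosen after values had been seen, 9 fell and none rose, 8 of them by 2-fold or more (median log2 change -1.71). DSE4, an endoglucanase of the daughter cell wall, stood at 155, 162 and 167 TPM in SNF2 and at 20.3, 22.4 and 20.1 TPM in snf2del. This 7.71-fold fall (log2 -2.89 ± 0.07, adjusted p = 4.91e-09) was the largest of the list. The glucanase SCW11 fell from 219.6 ± 17.4 to 42.0 ± 2.66 TPM, the separation regulator AMN1 from 155 ± 3.01 to 34.2 ± 7.01 TPM, and the wall protein EGT2 from 396 ± 27.7 to 110.5 ± 15.3 TPM. The exception was CTS1, the chitinase that cuts the septum, which stood at 776, 844 and 786 TPM in SNF2 and 707, 894 and 778 TPM in snf2del and was not called (log2 -0.02 ± 0.10, adjusted p = 0.848; -0.29, adjusted p = 0.0256, after median-ratio scaling).

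**Figure D2:**
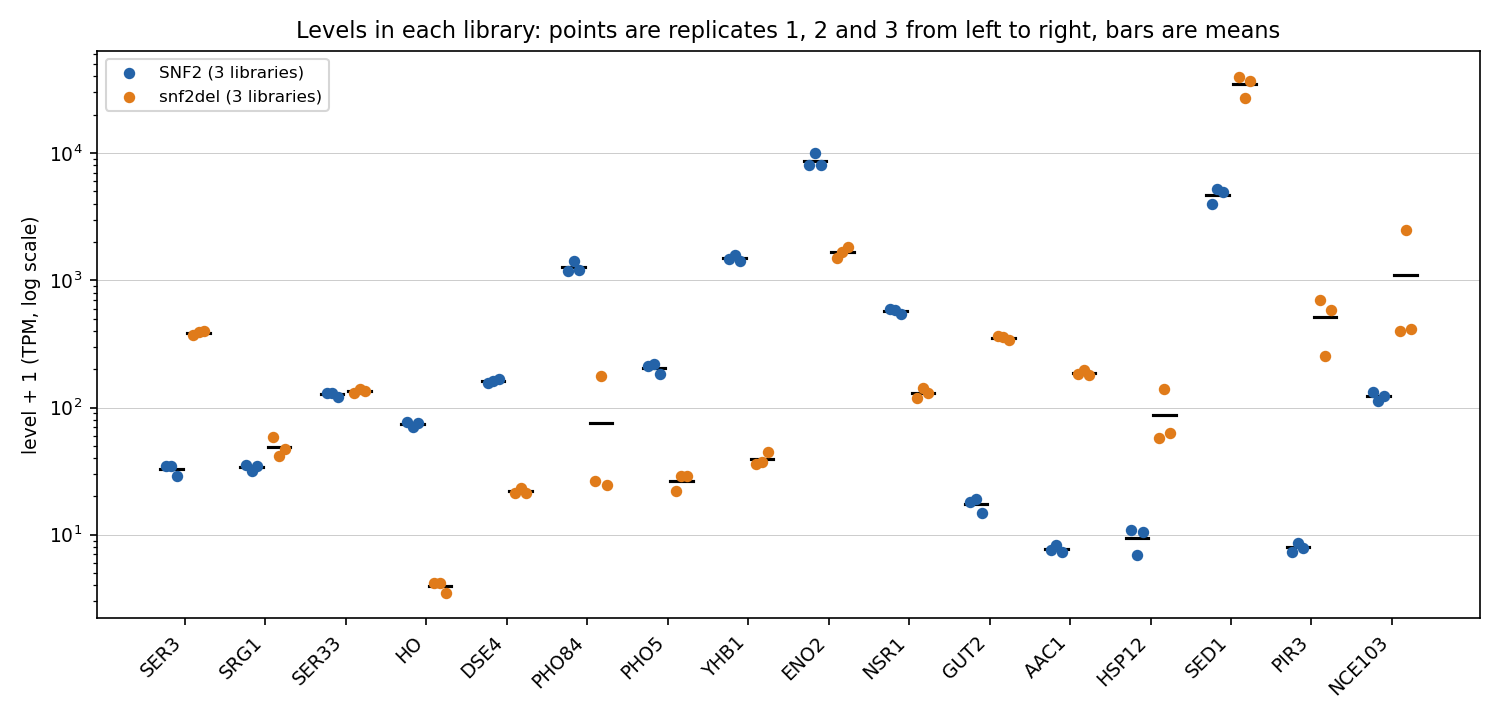
Levels in TPM plus 1 (y axis, log scale) in the 3 SNF2 libraries (blue) and the 3 snf2del libraries (orange) for 16 genes; each point is 1 library and each bar the mean of its group. SER3, SED1, GUT2 and PIR3 lie higher in all snf2del libraries, HO, PHO84, PHO5, YHB1 and ENO2 lower, and SER33 overlaps. In snf2del replicate 2, PHO84 and NCE103 stand above the other 2 libraries and PIR3 below them.

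The lowest median change of any list was in the acid and other phosphatases of the phosphate pathway. In this pathway the transcription factor Pho4, with Pho2, binds the sequence CACGTG upstream of transporters and acid phosphatases and turns them on when the kinase Pho85 with its cyclin Pho80 is inhibited by Pho81. CACGTG sites of 6 of the genes that fell are shown with the bases around them, from R64, because most genes of the pathway that fell hold one. For VTC3 a further site, 345 bases before its start, lies outside the bases shown. Sites are in capitals. Each stretch is written on the strand of its gene, as 60 bases: PHO84 at chrXIII:26182-26241, minus strand, PHO5 at chrII:431172-431231, minus strand, PHO12 at chrVIII:551789-551848, plus strand, PHO89 at chrII:798813-798872, minus strand, PHM6 at chrIV:1022568-1022627, minus strand and VTC3 at chrXVI:517297-517356, minus strand.
PHO84: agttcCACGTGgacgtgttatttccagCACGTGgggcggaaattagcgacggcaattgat
PHO5: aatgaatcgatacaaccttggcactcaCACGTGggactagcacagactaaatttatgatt
PHO12: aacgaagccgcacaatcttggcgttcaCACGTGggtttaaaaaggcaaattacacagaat
PHO89: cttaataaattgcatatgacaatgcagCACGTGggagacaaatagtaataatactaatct
PHM6: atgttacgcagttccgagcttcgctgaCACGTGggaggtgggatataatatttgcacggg
VTC3: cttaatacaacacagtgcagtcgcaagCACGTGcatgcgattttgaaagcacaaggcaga

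Among the transporters, PHO84, which takes up phosphate with high affinity, stood at 1189, 1425 and 1198 TPM in SNF2 and at 25.5, 175 and 23.6 TPM in snf2del. Every deletion library was lower than every control, but replicate 2 of snf2del stood well above the other 2. The log2 change was -4.70 ± 0.89 (limma adjusted p = 0.0074), and without that library it was -5.63 (adjusted p = 8.68e-09). SPL2, which inhibits low-affinity uptake in phosphate starvation, stood at 109, 94.1 and 87.8 TPM in SNF2 and 1.37, 3.44 and 1.02 TPM in snf2del (log2 -5.14 ± 0.28, adjusted p = 3.08e-06). PHO89, the sodium-coupled transporter, fell from 167 ± 10.8 to 13.6 ± 3.93 TPM (log2 -3.56 ± 0.18, adjusted p = 1.28e-06; -2.58 against the SWI3 libraries as control). The low-affinity transporters went both ways: PHO87 rose from 25.5 ± 1.03 to 90.2 ± 22.0 TPM and the vacuolar exporter PHO91 from 152 ± 14.5 to 331 ± 49.5 TPM, both called, while PHO90 fell from 79.2 ± 5.85 to 63.2 ± 5.09 TPM. In all, 4 of the 7 transport genes fell and 3 rose (median log2 change -0.32).

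Among the phosphatases, 5 of 7 fell, all by 2-fold or more, and 1 rose (median log2 change -2.49). PHO5, the secreted acid phosphatase whose promoter is a model for nucleosome removal, stood at 209, 219.7 and 183 TPM in SNF2 and at 21.2, 27.8 and 28.0 TPM in snf2del. The 2 groups did not overlap, and the log2 change was -2.95 ± 0.12 (adjusted p = 6.05e-08). PHO12 fell from 371 ± 30.2 to 14.7 ± 2.24 TPM and PHO11 from 302 ± 19.0 to 12.6 ± 2.10 TPM, but the 2 are 99.72% identical over 1404 bases, so how reads were split between them is uncertain. Against the SWI3 libraries as control their log2 changes were -5.26 and -5.18, in place of -4.57 and -4.48. PHO3, the phosphatase next to PHO5 that is known to be expressed when phosphate is ample, fell too, from 266 ± 27.6 to 47.9 ± 15.7 TPM (log2 -2.49 ± 0.21, adjusted p = 3.57e-05). GDE1, which breaks down glycerophosphocholine, was the gene of this list that rose, from 23.8 ± 1.92 to 62.2 ± 4.83 TPM (adjusted p = 8.57e-07), and the vacuolar alkaline phosphatase PHO8 was not called (158 ± 11.6 and 176 ± 14.0 TPM, adjusted p = 0.128).

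The vacuolar polyphosphate polymerase followed the transporters, 5 of 8 genes of that list falling by 2-fold or more (median log2 change -1.29). Its subunit genes fell in the order VTC3 (303 ± 26.9 to 33.9 ± 7.60 TPM, log2 -3.14 ± 0.14), VTC4 (log2 -1.60 ± 0.17), VTC2 (log2 -1.33 ± 0.09) and VTC1 (1141 ± 26.2 to 488 ± 116 TPM, log2 -1.25 ± 0.14), all called. PHM6, a phosphate-regulated gene of unknown function, stood at 149.9, 83.4 and 117 TPM in SNF2 and 3.19, 3.37 and 1.32 TPM in snf2del (log2 -5.04 ± 0.31, adjusted p = 1.02e-05). The regulators went both ways, 4 of 6 rising and 2 falling (median log2 change 0.44). PHO4 rose from 32.4 ± 2.16 to 49.4 ± 1.59 TPM (adjusted p = 7.18e-05) and PHO2 from 26.9 ± 1.45 to 44.2 ± 1.82 TPM (adjusted p = 2.55e-05). After median-ratio scaling their log2 changes were 0.336 and 0.435, both still called, in place of 0.60 and 0.69. PHO81, which is a regulator and itself a Pho4 target, fell from 77.7 ± 3.18 to 21.1 ± 3.43 TPM (adjusted p = 4.13e-07), and PHO86 fell as well (log2 -0.84).

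Of the 16 genes of the 4 phosphate lists that fell, 13 (81.25%) hold CACGTG within the 500 bases before their start, and of the 12 that rose or were not called 3 do (25.0%). Over all 5833 genes with such a window the share is 6.33%. The sequence is its own reverse complement, so both strands are covered, and a match describes these letters only. Among all genes that fell by 2-fold or more 7.26% hold CACGTG and among those that rose by 2-fold or more 7.86%, so the motif is frequent in the phosphate genes and not in the falls as a whole.

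On the log2 scale used here the largest fall was that of YHB1, the flavohemoglobin that detoxifies nitric oxide (chrVII:959904-961103, plus strand, R64). It stood at 1466, 1579 and 1415 TPM in SNF2 and at 35.1, 36.6 and 44.0 TPM in snf2del, a 38.5-fold fall of the mean (log2 -5.24 ± 0.09, limma adjusted p = 1.36e-09). Every deletion library was far below every control. By the ratio of the means SPL2 (49.9-fold) and PHM6 (44.5-fold) fell by more. INA1 fell from 426 ± 31.3 to 22.7 ± 2.98 TPM (log2 -4.18 ± 0.10, adjusted p = 4.29e-09). MRH1, a plasma membrane protein of the Hsp30 family, fell from 899.8 ± 87.2 to 113 ± 17.6 TPM (log2 -2.98 ± 0.12, adjusted p = 7.28e-08), whereas its relative HSP30 rose from 8.13 ± 0.278 to 80.6 ± 25.0 TPM (log2 3.11 ± 0.21, adjusted p = 6.54e-06). Transporter genes also fell: the peptide transporter PTR2 went from 216 ± 22.5 to 27.8 ± 3.17 TPM, the tyrosine and tryptophan permease TAT1 from 137 ± 12.3 to 21.4 ± 1.22 TPM, and the putative ammonium exporter ATO3 from 177 ± 16.3 to 31.9 ± 6.08 TPM, all called. In the list of 20 peptide and amino acid permeases 11 rose and 8 fell (median log2 change 0.32), and after median-ratio scaling 6 rose and 9 fell.

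The genes for making ribosomes fell nearly as a block, and this held under every scaling tried. Of 137 ribosomal protein genes 130 fell and 2 rose, 40 of the falls by 2-fold or more, and the median log2 change was -0.86 (-1.13 after median-ratio scaling and -0.67 after quantile normalization). Their summed mean level went from 256600 TPM in SNF2 to 151300 TPM in snf2del. Many ribosomal protein genes have a near-identical copy. RPL1A, for example, is 99.39% identical to RPL1B over 654 bases, and RPS6A is 98.88% identical to RPS6B over 716 bases. Reads may have been split between such copies, so the 137 genes do not all count as separate observations. Of 58 genes for ribosome assembly 56 fell and none rose, 38 by 2-fold or more (median log2 change -1.10). The 2 that were not called were TIF6 (363 ± 18.7 and 351 ± 15.9 TPM, adjusted p = 0.573) and SPB4 (52.5 ± 3.18 and 50.6 ± 2.49 TPM, adjusted p = 0.565), and both were called lower after median-ratio scaling. Of 13 genes for RNA polymerase I and its factors 10 fell and 1 rose (median -0.83).

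Within these lists the size of the fall differed. NSR1, a nucleolar protein of ribosomal RNA processing, stood at 589, 582 and 543 TPM in SNF2 and at 118, 140.5 and 128 TPM in snf2del (log2 -2.14 ± 0.08, adjusted p = 4.48e-08), and the helicase gene DBP2 fell most, from 314 ± 16.7 to 64.4 ± 12.3 TPM (log2 -2.28 ± 0.12, adjusted p = 5.36e-07). The polymerase I subunit RPA34 fell from 235 ± 26.3 to 89.3 ± 2.92 TPM and the initiation factor RRN11 from 35.0 ± 2.87 to 10.7 ± 0.746 TPM, both called. RPL22A had the largest fall among ribosomal protein genes, but its levels were 170.1, 30.3 and 169.9 TPM in SNF2 and 4.58, 13.4 and 4.34 TPM in snf2del, with replicate 2 standing apart in both groups. Its log2 change was -3.69 ± 0.89 (adjusted p = 0.0174). The call was lost without SNF2 replicate 1 or 3 or snf2del replicate 1 (adjusted p = 0.054, 0.0607 and 0.0651), and without SNF2 replicate 2 the change was -4.50 (adjusted p = 0.00207). Against the SWI3 libraries as control it was -2.26 and not called (adjusted p = 0.094). Its paralog RPL22B fell, from 231 ± 11.2 to 132 ± 17.9 TPM (log2 -0.81 ± 0.10, adjusted p = 4.3e-05). The PAC element GATGAG, which many ribosome assembly genes are known to carry, lies within the 500 bases before the start of 54 of the 58 assembly genes (93.1%). On either strand it is found before 28.2% of all 5833 genes, 54.6% of those that fell by 2-fold or more and 22.9% of those that rose by 2-fold or more.

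**Figure D3:**
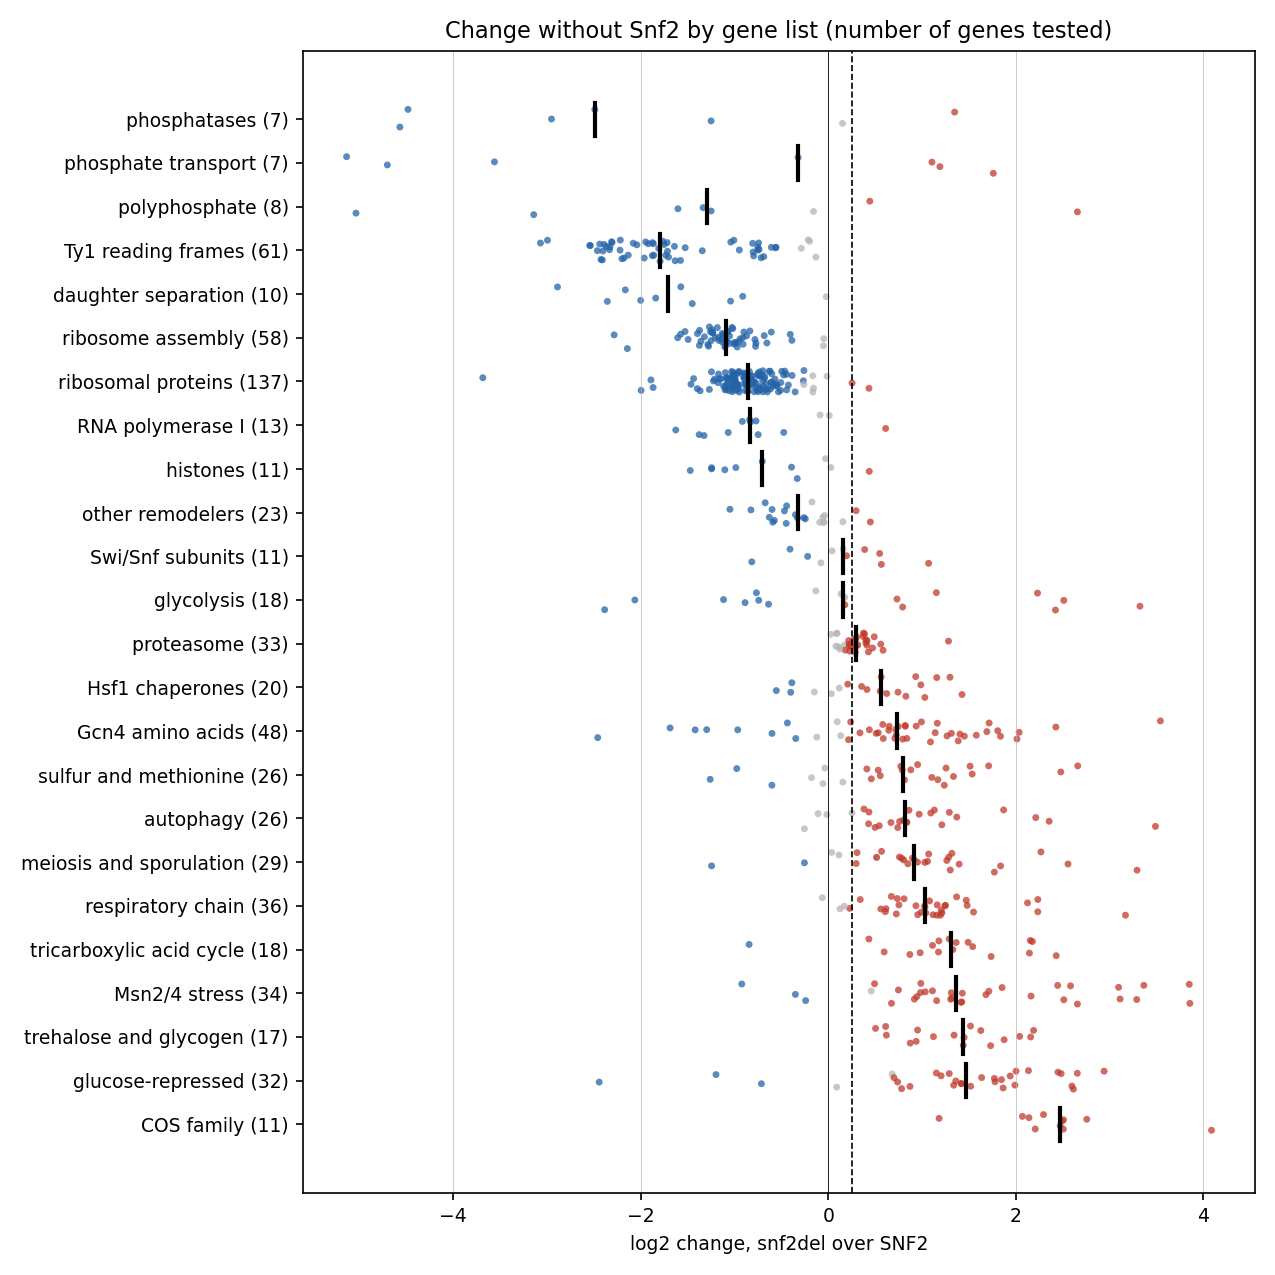
Log2 change in snf2del over SNF2 (x axis) of every tested member of 24 gene lists, 1 point per gene, red where called higher, blue where called lower and grey where not called; the black tick is the median of the list and the dashed line the median of all 6394 genes, 0.26. Ribosome, Ty1 and daughter-separation lists lie to the left and respiration, storage sugar, stress and COS lists to the right.

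In central metabolism enolase, phosphoglycerate mutase and pyruvate kinase each had a main gene that fell and a minor isozyme gene that rose. Of 18 glycolytic genes 8 rose and 7 fell (median log2 change 0.16, and -0.11 after median-ratio scaling), and the summed mean level of the list went from 55460 to 31010 TPM. ENO2, the main enolase, stood at 8123, 10034 and 8042 TPM in SNF2 and at 1500.5, 1679 and 1822 TPM in snf2del (log2 -2.39 ± 0.11, limma adjusted p = 1.28e-07). ENO1, the enolase used on other carbon sources, rose from 296 ± 46.8 to 661 ± 114 TPM (log2 1.15 ± 0.15, adjusted p = 0.000162). The 2 copies are 94.9% identical, which leaves the split of some reads uncertain. The same opposite pair was seen in phosphoglycerate mutase, GPM1 falling from 4678 ± 365 to 1119 ± 96.2 TPM and the minor copy GPM2 rising from 1.78 ± 0.630 to 13.7 ± 1.44 TPM, and in pyruvate kinase, CDC19 falling from 7693 ± 830.5 to 4512 ± 271 TPM and PYK2 rising from 10.8 ± 0.407 to 54.3 ± 2.38 TPM, all 4 called. The hexose kinases GLK1 and HXK1 rose, GLK1 from 73.5 ± 9.89 to 741 ± 15.8 TPM (log2 3.33 ± 0.10, adjusted p = 8.95e-09) and HXK1 from 34.0 ± 7.31 to 197 ± 31.0 TPM (log2 2.51 ± 0.16, adjusted p = 2.88e-06). PGK1, at 2827 ± 428 and 3176 ± 216 TPM, was not called (adjusted p = 0.188, and 0.0171 without SNF2 replicate 2).

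Alcohol and sugar uptake genes changed in both directions. ADH1, the main fermentative alcohol dehydrogenase, fell from 7008 ± 734 to 2734 ± 226 TPM (log2 -1.36 ± 0.10, adjusted p = 2e-06), and the mitochondrial aldehyde dehydrogenase ALD4 rose from 40.1 ± 6.35 to 340.2 ± 21.6 TPM (log2 3.06 ± 0.11, adjusted p = 3.07e-08). Over the 15 genes of fermentation 8 rose and 7 fell (median log2 change 0.67, and -0.02 after quantile normalization). HXT1 and HXT3, the low-affinity transporters for high glucose, fell from 240.3 ± 25.0 to 63.5 ± 5.06 TPM and from 474 ± 12.1 to 221 ± 28.3 TPM, whereas HXT5, a transporter of starved cells, rose from 6.40 ± 0.707 to 24.6 ± 1.57 TPM, all called. Of 16 hexose transport and sensor genes 10 rose and 3 fell (median log2 change 0.72; 6 and 5, median 0.18, after quantile normalization).

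Genes normally held down by glucose were mostly higher, although the medium contained glucose. Of 32 glucose-repressed genes 27 rose, 23 of them by 2-fold or more, and 3 fell (median log2 change 1.47). SUC2, invertase, stood at 54.2, 61.4 and 53.4 TPM in SNF2 and 157, 141 and 157 TPM in snf2del (log2 1.42 ± 0.08, limma adjusted p = 3.84e-07), and was thus higher, not lower, without Snf2 in this medium. JEN1, the lactate carrier, rose from 5.84 ± 0.464 to 51.8 ± 6.23 TPM (log2 2.94 ± 0.11), MDH2, the cytosolic malate dehydrogenase of gluconeogenesis, from 16.2 ± 0.756 to 95.7 ± 8.68 TPM (log2 2.48 ± 0.09), and the activators ADR1 and CAT8 from 20.5 ± 1.90 to 93.5 ± 7.49 TPM and from 5.05 ± 0.808 to 16.2 ± 0.994 TPM, all called. Against the SWI3 libraries as control the log2 change of ADR1 was 2.94 in place of 2.14. ADH2, the alcohol dehydrogenase that consumes ethanol and is known to need Adr1, went the other way, from 481 ± 93.9 to 208 ± 24.7 TPM (log2 -1.20 ± 0.14, adjusted p = 6.39e-05).

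Respiration genes rose together. Of 18 genes of the tricarboxylic acid cycle 17 rose and 1 fell (median log2 change 1.31), and of 36 respiratory chain genes 33 rose and none fell (median 1.04; 31 rose and 1 fell after median-ratio scaling). SDH4, a membrane anchor of succinate dehydrogenase, stood at 92.0, 107 and 95.4 TPM in SNF2 and at 581, 464 and 562 TPM in snf2del (log2 2.43 ± 0.10, adjusted p = 6.23e-08), and the citrate synthase CIT1 rose from 66.3 ± 4.45 to 305 ± 44.1 TPM (log2 2.18 ± 0.11, adjusted p = 1.66e-07). CYC7, the minor cytochrome c, rose from 12.04 ± 1.19 to 117 ± 19.3 TPM (log2 3.17 ± 0.12, adjusted p = 5.21e-08). AAC1, an ADP/ATP carrier of the inner mitochondrial membrane, stood at 6.63, 7.35 and 6.28 TPM in SNF2 and 183, 196 and 179.6 TPM in snf2del, a 27.6-fold rise of the mean (log2 4.59 ± 0.08, adjusted p = 1.36e-09), while AAC3, the carrier used without oxygen, fell from 16.7 ± 1.30 to 2.58 ± 0.372 TPM (log2 -2.31 ± 0.15, adjusted p = 7.77e-07).

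GUT2, the mitochondrial glycerol-3-phosphate dehydrogenase, was among the largest rises. Its level was 17.0, 18.2 and 13.9 TPM in SNF2 and 361, 357 and 340.4 TPM in snf2del, 21.6-fold by the means (log2 4.36 ± 0.10, adjusted p = 3.18e-09). GPP1, the phosphatase that releases glycerol, fell from 1379.6 ± 59.6 to 609.5 ± 75.8 TPM (log2 -1.18 ± 0.10, adjusted p = 3.13e-06), and of the 10 glycerol genes 6 rose and 2 fell (median 0.49). All 17 genes of trehalose and glycogen, the storage sugars that yeast builds up as growth slows, were called higher, 11 by 2-fold or more (median log2 change 1.44; 16 of 17 after median-ratio scaling). TSL1, a subunit of trehalose synthase, rose from 18.5 ± 2.28 to 85.9 ± 7.85 TPM, and GAC1, which targets the phosphatase that activates glycogen synthase, from 12.1 ± 1.05 to 60.2 ± 16.5 TPM.

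Stress genes under the activators Msn2 and Msn4 rose in the same libraries. Of 34 such genes 30 rose, 23 by 2-fold or more, and 3 fell (median log2 change 1.37). The small heat shock gene HSP26 stood at 3.63, 5.55 and 3.996 TPM in SNF2 and at 88.4, 79.2 and 63.4 TPM in snf2del (log2 3.86 ± 0.16, limma adjusted p = 9.86e-08), and the ribosome-associated TMA10 rose from 15.7 ± 2.91 to 243 ± 64.1 TPM (log2 3.85 ± 0.21, adjusted p = 2.93e-06). XBP1, a repressor made in stress, rose from 6.72 ± 0.333 to 78.8 ± 7.67 TPM and HSP42, another small chaperone, from 18.5 ± 0.949 to 166 ± 11.3 TPM. HSP12, a membrane-protecting protein often used as the reporter of this response, was uneven: 9.92, 5.92 and 9.56 TPM in SNF2 and 56.9, 139.6 and 62.6 TPM in snf2del, where replicate 2 was the highest (log2 3.11 ± 0.40, adjusted p = 0.000821). YGP1, a wall glycoprotein of the same list, fell from 72.5 ± 6.23 to 37.9 ± 5.25 TPM (log2 -0.92 ± 0.11, adjusted p = 3.32e-05).

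Msn2 and Msn4 bind the stress element AGGGG. The HSP12 promoter is shown because it holds 5 copies on the 2 strands (AGGGG, or CCCCT where the element lies on the other strand, in capitals) and because HSP12 is the usual reporter of the response. The stretch covers the bases 450 to 171 before the HSP12 start (chrVI:106806-107085, plus strand, R64).
HSP12 promoter: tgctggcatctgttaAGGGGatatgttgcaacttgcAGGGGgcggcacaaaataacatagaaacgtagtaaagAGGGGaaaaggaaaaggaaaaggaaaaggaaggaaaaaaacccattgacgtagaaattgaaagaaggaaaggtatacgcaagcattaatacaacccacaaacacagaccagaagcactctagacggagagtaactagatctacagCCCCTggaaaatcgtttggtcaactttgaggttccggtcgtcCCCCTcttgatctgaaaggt

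Within 500 bases of the start, on either strand, AGGGG was found before 29 of the 34 genes of the stress list (85.3%) and 14 of the 17 trehalose and glycogen genes (82.4%). The stress list holds genes known to be under Msn2 and Msn4, so its share describes the choice of the list and not the deletion. Over all 5833 genes the share was 34.1%. It was 49.4% among genes that rose by 2-fold or more, 30.2% among uncalled genes and 19.9% among genes that fell by 2-fold or more.

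Chaperones of the heat shock factor Hsf1 moved less than the Msn2 and Msn4 genes. Of 20 such genes 14 rose, 4 by 2-fold or more, and 3 fell (median log2 change 0.56). HSP82, the inducible Hsp90, rose from 109 ± 5.74 to 246 ± 24.9 TPM (log2 1.16 ± 0.09, adjusted p = 1.96e-06), with a copy, HSC82, 91.8% identical to it, and the abundant Hsp70 gene SSA2 fell from 2139 ± 156 to 1624 ± 181 TPM (log2 -0.40 ± 0.10, adjusted p = 0.00463; 0.433 after quantile normalization). Of 26 autophagy genes 22 rose and none fell (median 0.82; 18 rose and 2 fell after median-ratio scaling). ATG8, the protein that coats forming autophagosomes, stood at 5.40, 6.54 and 6.14 TPM in SNF2 and 86.9, 70.9 and 76.5 TPM in snf2del (log2 3.49 ± 0.11, adjusted p = 1.27e-08). The vacuolar protease PRB1 rose from 68.0 ± 2.12 to 659 ± 39.8 TPM (log2 3.26 ± 0.07, adjusted p = 2.99e-09). The rise of the 33 proteasome genes was not independent of scaling: 26 were called higher and none lower in the deposited TPM (median log2 change 0.29, near the 0.26 of all genes), and 5 higher and 3 lower after median-ratio scaling.

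Cell wall genes changed in both directions. Of 26 genes 13 rose and 8 fell, with a median log2 change of 0.28 that was close to the 0.26 of all genes (11 and 12 after median-ratio scaling), and the summed mean level of the list went from 36450 to 85600 TPM. Much of that sum is SED1, a structural wall protein, which stood at 3979, 5206 and 4974 TPM in SNF2 and at 39943, 27215 and 36706 TPM in snf2del (log2 2.87 ± 0.16, limma adjusted p = 5.39e-07). PIR3, a wall protein held to glucan, stood at 6.37, 7.68 and 6.90 TPM in SNF2 and 696, 255 and 580.1 TPM in snf2del, with replicate 2 lowest among the deletion libraries but still far above every control (log2 5.88 ± 0.41, adjusted p = 8.39e-05). CRH1, which links chitin to glucan, rose from 495 ± 33.5 to 3200.3 ± 372 TPM and HSP150, another Pir protein, from 2099 ± 216 to 7944 ± 1060.4 TPM. The mannoprotein CWP1 fell from 204 ± 28.0 to 61.2 ± 8.63 TPM (log2 -1.72 ± 0.13, adjusted p = 2.61e-06). Of 8 flocculin and adhesin genes 7 rose and none fell (median 1.26); FLO11, the main adhesin, rose from 11.3 ± 1.55 to 32.0 ± 1.95 TPM (log2 1.44 ± 0.11, adjusted p = 2.52e-06). FLO1, FLO5 and FLO9 resemble each other at over 90% identity, so reads may have been split between them.

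Amino acid genes were mostly higher, with 2 genes of the early lysine pathway among the exceptions. Of 48 genes under Gcn4, the activator of amino acid synthesis, 37 rose and 8 fell (median log2 change 0.74). SNZ1, a vitamin B6 enzyme that Gcn4 also controls, stood at 36.5, 20.9 and 27.7 TPM in SNF2 and 338, 368 and 298 TPM in snf2del (log2 3.54 ± 0.19, limma adjusted p = 2.44e-06), and ARG4, the last enzyme of arginine synthesis, rose from 97.7 ± 10.1 to 528 ± 15.4 TPM (log2 2.43 ± 0.08, adjusted p = 2.9e-08). LYS20, homocitrate synthase, fell from 218 ± 14.4 to 39.0 ± 5.96 TPM (log2 -2.46 ± 0.11, adjusted p = 8.07e-08), and LYS4, homoaconitase, from 233 ± 1.95 to 71.7 ± 3.61 TPM (log2 -1.69 ± 0.07, adjusted p = 5.47e-08; -0.79 against the SWI3 libraries as control), whereas LYS1, the last enzyme of lysine synthesis, rose from 80.3 ± 5.99 to 262 ± 30.5 TPM (adjusted p = 3.41e-07). In SWI3, LYS4 stood at 124 ± 5.10 TPM, so the 2 wild-type groups differed in this gene. LYS20 is 95.35% identical to LYS21 over 1161 bases. The Gcn4 site TGACTC lies, on either strand, within 500 bases of the start in 37 of 47 genes of the list (78.7%) and in 12.8% of all 5833 genes. The list was chosen as genes under Gcn4, so this share describes the list and not the deletion. The SNZ1 promoter is shown because it holds 3 copies (in capitals) and SNZ1 had the largest rise of the list. The stretch covers the bases 320 to 161 before its start (chrXIII:458088-458247, plus strand, R64).
SNZ1 promoter: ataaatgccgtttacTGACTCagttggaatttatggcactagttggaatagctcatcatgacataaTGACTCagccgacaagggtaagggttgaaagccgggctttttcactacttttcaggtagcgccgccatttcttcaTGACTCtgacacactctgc

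Vitamin and sulfur genes mostly rose, while iron genes went both ways. Of 22 thiamine and vitamin B6 genes 19 rose and 1 fell (median log2 change 1.48, and 1.01 against the SWI3 libraries as control). In 3 of them the effect differed between the Snf2 and Swi3 pairs. THI5, a thiamine precursor enzyme, rose from 0.961 ± 0.253 to 23.5 ± 1.65 TPM, with 3 copies of over 90% identity elsewhere. Of 26 sulfur and methionine genes 19 rose and 3 fell (median 0.80); MET13, a folate enzyme of methionine synthesis, rose from 32.0 ± 3.08 to 183 ± 9.26 TPM and CYS4, which makes cystathionine, fell from 491 ± 30.2 to 204 ± 5.09 TPM, both called. Of 24 iron genes 13 rose and 9 fell (median 0.40). The reductase FRE1 fell from 249 ± 55.8 to 67.0 ± 30.7 TPM (adjusted p = 0.00329) and the wall mannoprotein FIT3, which holds iron carriers, rose from 329 ± 58.4 to 1540.4 ± 380.4 TPM (adjusted p = 2.87e-05; log2 2.21, and 3.19 against the SWI3 libraries as control). OLE1, the fatty acid desaturase, rose from 609 ± 39.5 to 4186 ± 79.1 TPM (log2 2.78 ± 0.08, adjusted p = 8.89e-09). Of 14 inositol and phospholipid genes 8 rose and 2 fell (median 0.44). INO1, the inositol synthase gene that in starved cells is known to need Swi/Snf, rose from 5.43 ± 0.762 to 23.0 ± 1.83 TPM in these cultures (log2 1.90 ± 0.13, limma adjusted p = 1.03e-06).

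Most histone genes were lower. Of 11 histone genes 8 fell and 1 rose (median log2 change -0.70). HTB1, histone H2B, stood at 1262, 1155 and 1054 TPM in SNF2 and at 437, 506 and 519 TPM in snf2del (log2 -1.24 ± 0.10, limma adjusted p = 2.22e-06), and HTA1, the H2A gene beside it, fell from 778 ± 47.9 to 328 ± 27.3 TPM (log2 -1.24 ± 0.09, adjusted p = 1.07e-06), as did HTA2, which is 93.7% identical to it. The H3 gene HHT2 was not called (1370.3 ± 171 and 1337 ± 73.0 TPM, adjusted p = 0.809), and HHO1, the linker histone, rose from 87.0 ± 8.55 to 118 ± 6.32 TPM (adjusted p = 0.00113), a rise that is no longer called after median-ratio scaling.

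Among the 23 genes of other remodelers 14 fell and 2 rose (median -0.33; 20 fell and 1 rose after median-ratio scaling). STH1, the ATPase of RSC and the closest relative of Snf2, fell from 66.0 ± 2.78 to 37.0 ± 4.60 TPM (log2 -0.82 ± 0.10, adjusted p = 3.54e-05), and its RSC partner RSC4 from 41.5 ± 1.52 to 19.5 ± 0.109 TPM (log2 -1.05 ± 0.08, adjusted p = 1.43e-06). Of the 11 other Swi/Snf subunit genes tested 5 rose and 3 fell (median log2 change 0.16, and -0.10 after median-ratio scaling). The largest changes were a rise of SWP82 from 26.3 ± 1.56 to 56.6 ± 6.30 TPM (adjusted p = 5.78e-06) and a fall of ARP9, an actin-related subunit shared with RSC, from 78.7 ± 5.67 to 44.4 ± 5.60 TPM (adjusted p = 5.01e-05).

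Cell identity genes showed no single direction. Of 7 MATa genes 2 rose and 3 fell (median log2 change -0.19), the largest fall being BAR1, the protease that degrades alpha factor, from 106 ± 8.48 to 35.9 ± 3.85 TPM (adjusted p = 5.39e-07). STE2 fell from 436 ± 38.1 to 289 ± 58.2 TPM (adjusted p = 0.00504) and MFA2 was not called (adjusted p = 0.33). STE3 rose to 4.41 ± 0.496 TPM and stayed far below STE2 (adjusted p = 0.000248). Of the 3 MATalpha genes tested 2 rose and none fell (median log2 change 1.28), while 2 rose and 1 fell after quantile normalization. Their summed mean level went from 31.41 to 71.85 TPM. Of 29 genes of meiosis and sporulation 24 rose and 2 fell (median log2 change 0.92), mostly at low levels, and after quantile normalization 11 rose and 5 fell (median 0.18): the recombinase DMC1 rose from 5.06 ± 0.213 to 34.8 ± 3.71 TPM, while SPO24, a small sporulation protein, rose from 309 ± 27.9 to 3034 ± 171 TPM (log2 3.29 ± 0.09, adjusted p = 6.4e-09). Of 14 cyclin genes 8 fell and 4 rose (median -0.32).

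Most Ty1 and Ty2 frames fell. Of 61 reading frames of the retrotransposon Ty1, 57 fell and none rose, 44 by 2-fold or more (median log2 change -1.79), and their summed mean level went from 4725 to 1265 TPM. All 20 Ty2 frames fell (median -1.43), the 3 Ty3 frames rose (median 0.47; 2 after median-ratio scaling and 1 after quantile normalization), and the 2 Ty4 frames tested were not called (both were called lower after quantile normalization). These frames were grouped after values had been seen. Their copies are nearly identical (YPL257W-B, for example, is 96.1% identical to its closest relative), so the frames of a family share reads and do not count as separate observations.

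Of the 225 genes within 20 kb of a chromosome end 192 (85.3%) rose and 14 (6.22%) fell, with a median log2 change of 1.40, beside 48.3% and 25.7% of the 5716 genes farther in (median 0.22). All 11 COS genes, a family of membrane proteins found near chromosome ends, rose by 2-fold or more (median log2 change 2.47, and 1.69 against the SWI3 libraries as control). In 7 of them the effect differed between the Snf2 and Swi3 pairs. They resemble each other enough to share reads. Among the end genes were some of the largest rises of the comparison. ADH7, an alcohol dehydrogenase gene 6466 bases from an end of chromosome III, was listed at 0.436, 0.704 and 0.614 TPM in SNF2 and 41.3, 39.9 and 38.5 TPM in snf2del. IMD2, an IMP dehydrogenase gene in the last stretch of chromosome VIII, stood at 7.88, 11.2 and 8.92 TPM in SNF2 and 252, 217 and 273 TPM in snf2del. In both genes the controls of the 2 pairs differed: ADH7 was at 15.9 ± 0.523 TPM in SWI3 and at 32.1 ± 1.07 TPM in swi3del, and IMD2 at 30.2 ± 4.81 and 220.3 ± 40.9 TPM. Against the SWI3 libraries as control the log2 change in snf2del was 1.28 for ADH7 and 3.00 for IMD2, in place of 4.69 and 4.59.

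The loss of Snf2 and the loss of Swi3 were then compared, each against its own wild type, so that the 2 effects share no library. Of the 1662 genes that changed by 2-fold or more without Snf2, 1595 were called in the same direction without Swi3 and 0 in the opposite direction. A test of the difference between the 2 effects over 6403 genes called 110 (1.72%), 62 (0.968%) with a more positive effect in the Snf2 pair and 48 (0.75%) with a more negative one. Their positions were not spread evenly. Of the 48 negative differences 39 lay in 1 stretch of chromosome IV of 48 tested genes, from GCD6 to EXG2 (chrIV:884727-979209), and 45 of the 62 positive differences were genes within 20 kb of a chromosome end. Both end genes of the stretch, GCD6 and EXG2, are among these 39. Its bounds thus rest on the same values, and the count within it is a description only. In the stretch 33 of 48 genes fell in snf2del against SNF2 (68.8%) and 7 rose. At the ends and in the stretch the 2 wild-type groups themselves differed, as for SNU56, a protein of the U1 splicing particle, which stood at 36.4 ± 4.49 TPM in SNF2, 17.4 ± 0.829 TPM in SWI3, 11.9 ± 0.507 TPM in snf2del and 15.2 ± 1.40 TPM in swi3del.

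**Figure D4:**
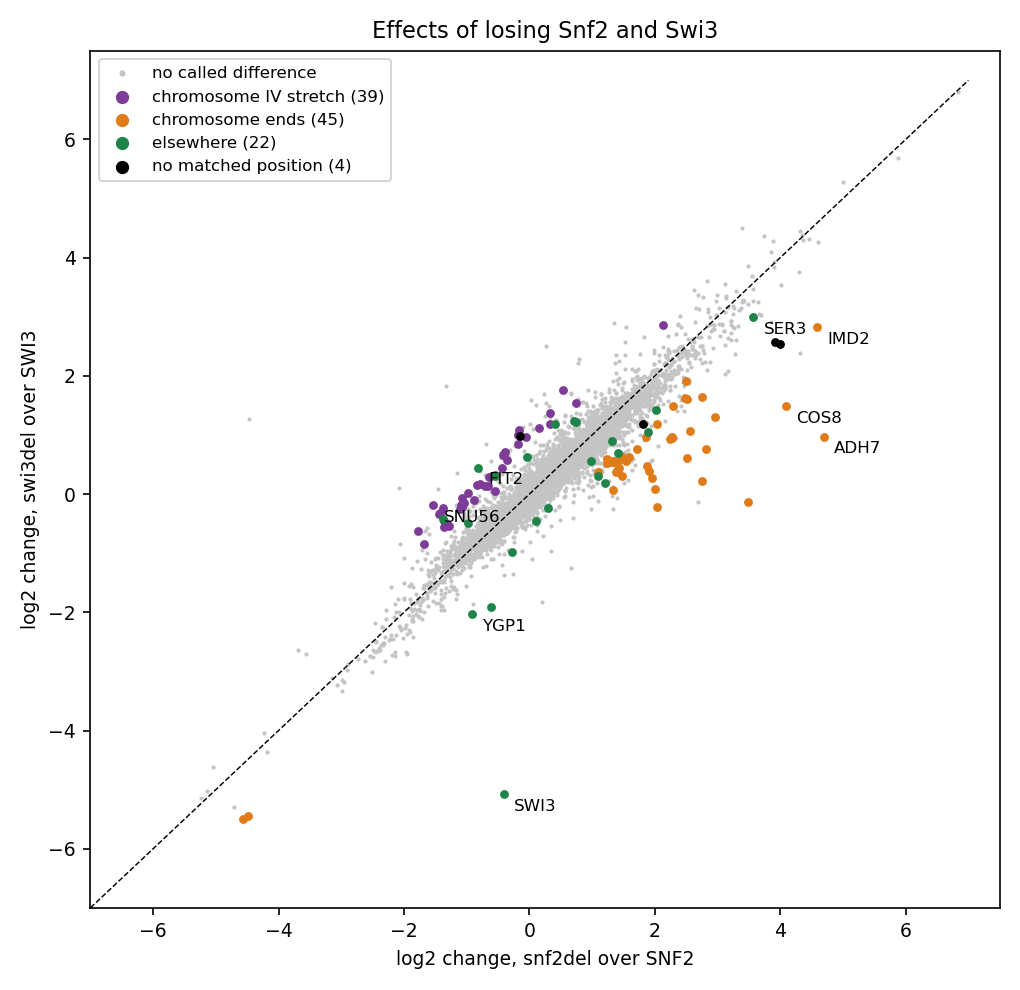
Log2 change of snf2del over SNF2 (x axis) against log2 change of swi3del over SWI3 (y axis) for 6403 genes; the dashed line marks equal changes. Of the 110 genes whose changes differed (limma adjusted p under 0.05), 39 lie in the chromosome IV stretch (purple), 45 within 20 kb of a chromosome end (orange) 22 elsewhere (green) and 4 have no matched position (black); all others are grey.

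Of the other 26 called differences 4 were in genes with no matched position, 3 positive and 1 negative, and 22 lay outside both, 14 positive and 8 negative. The largest of the 22 was SWI3 itself, deleted in swi3del. SER3 was one of them: it rose from 37.9 ± 1.35 to 308 ± 13.4 TPM without Swi3, and the rise without Snf2 was larger by 0.58 ± 0.11 on the log2 scale (limma adjusted p = 0.00929). YGP1 fell in both pairs but less without Snf2 (difference 1.11 ± 0.15, adjusted p = 0.000634), from 101 ± 3.81 to 24.1 ± 2.66 TPM in the Swi3 pair. Among the negative differences, FIT2, a wall mannoprotein of iron retention, fell from 275 ± 59.2 to 155 ± 28.1 TPM without Snf2 and went from 94.9 ± 9.76 to 129 ± 10.00 TPM without Swi3 (difference -1.26 ± 0.23, adjusted p = 0.0129). Its fall became a rise of 0.69 on the log2 scale (adjusted p = 0.00129) when snf2del was set against the SWI3 libraries. MET3, the first enzyme of sulfate assimilation, rose in both pairs, by less without Snf2 and not past the threshold after median-ratio scaling (adjusted p = 0.137 for snf2del; log2 0.41, and 1.07 against the SWI3 libraries; difference -0.77 ± 0.13, adjusted p = 0.00352). The drug transporter gene AQR1 fell by more without Snf2 (difference -0.95 ± 0.17, adjusted p = 0.00712). When the genes of the ends and of the stretch were left out of the fit before testing, 3 positive and 2 negative differences were called among 6128 genes. Since the stretch is bounded by called genes, fewer negative calls without it were partly fixed in advance. In that fit the differences of SER3, FIT2 and AQR1 were not called (adjusted p = 0.0769, 0.0982 and 0.0696), and those of YGP1 and MET3 were.

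The genes the comparison turns on differed in how far the 2 point mutants went toward the deletion, given here side by side and without a test since they share the SNF2 control. HO stood at 73.3 ± 3.29 TPM in SNF2, 16.6 ± 0.758 TPM in snf2-W935R, 3.44 ± 0.241 TPM in snf2-Q928K and 2.95 ± 0.383 TPM in snf2del. YHB1 was near the wild-type level in snf2-W935R (1380.2 ± 46.4 TPM) and far under it in snf2-Q928K (132 ± 8.94 TPM). Both mutants were near the deletion for PHO5 (21.6 ± 2.46 and 29.5 ± 2.48 TPM) and SPL2 (3.09 ± 0.278 and 1.89 ± 0.834 TPM), but stood far above the deletion for PHO84 (657 ± 45.9 and 814 ± 68.7 TPM) and INA1 (331 ± 10.3 and 336 ± 18.6 TPM). PIR3 stood at 14.0 ± 1.43 and 18.3 ± 1.80 TPM in the 2 mutants, beside 510.2 ± 228 TPM in snf2del and 482 ± 45.5 TPM in swi3del.

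**Figure D5:**
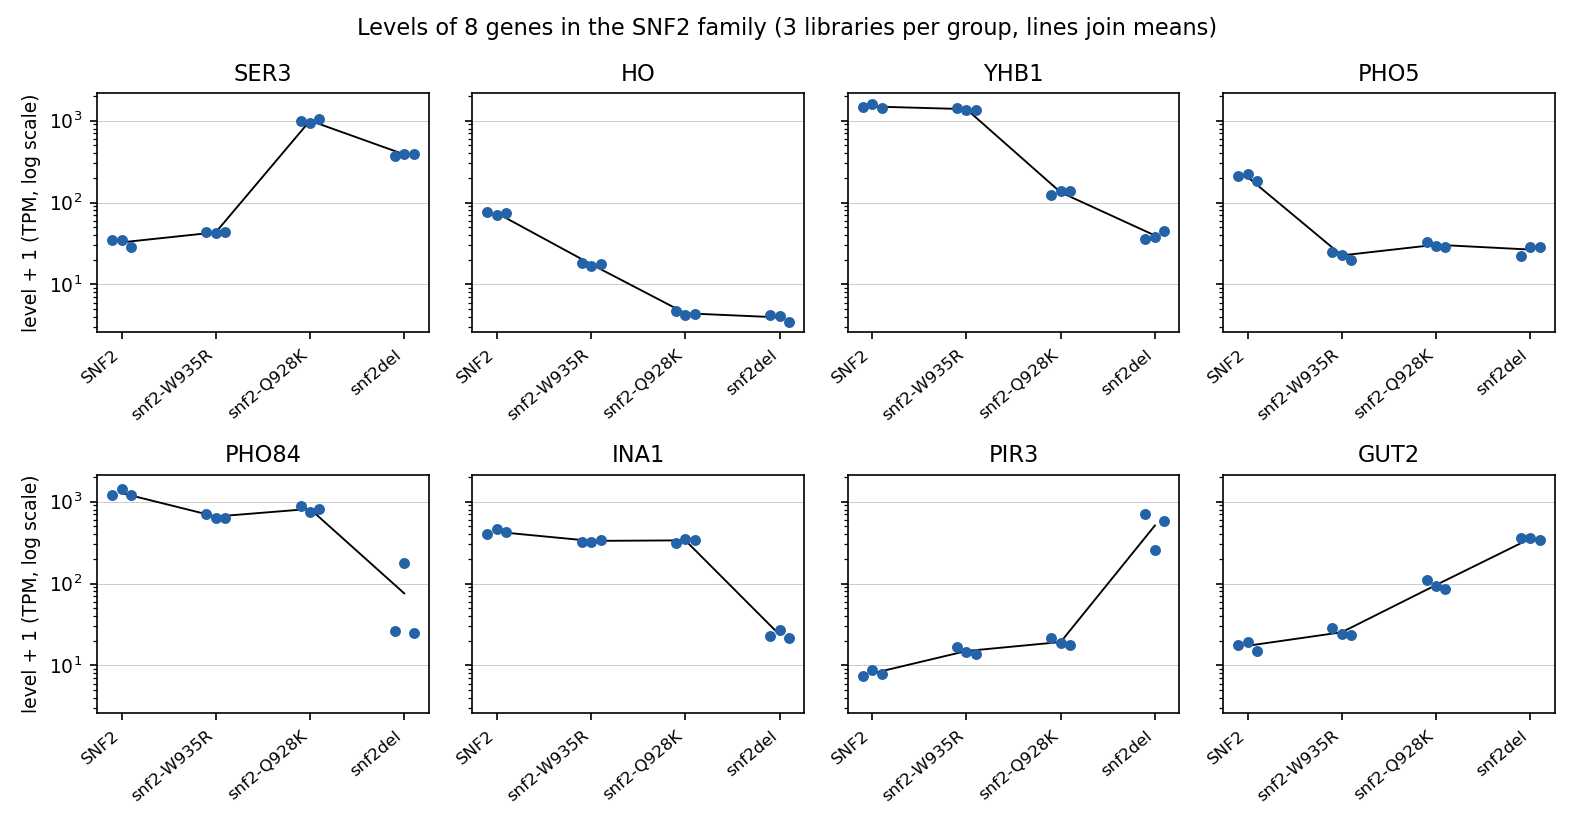
Levels in TPM plus 1 (y axis, log scale) of 8 genes in the 4 groups of the SNF2 family, SNF2, snf2-W935R, snf2-Q928K and snf2del; each point is 1 library and the line joins the means. SER3 is highest in snf2-Q928K, PHO5 is low in all 3 mutants, and PIR3 and INA1 change mainly in snf2del.

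The spread between replicates was uneven across genes. In SNF2 the largest SDs of the log2 level among genes with a mean of at least 10 TPM were in RPL22A, YGL123C-A, the small nucleolar RNA SNR190 and the ribosomal RNA genes RDN18-1 and RDN18-2. In snf2del PHO84 and NCE103, the carbonic anhydrase gene, were among the 5 with the largest SD, in both cases through replicate 2. NCE103 stood at 132, 111 and 122 TPM in SNF2 and 398, 2483 and 415 TPM in snf2del, with a log2 change of 2.60 ± 0.83 (adjusted p = 0.0417) and of 1.74 without that library (adjusted p = 5.84e-07). The call was lost when any 1 of SNF2 replicates 1, 2 and 3 or snf2del replicate 1 was left out (adjusted p = 0.0541 to 0.119). Across genes, replicate 2 of snf2del correlated with the SNF2 libraries at 0.884 to 0.890 and the other 2 at 0.864 to 0.873. Leaving it out gave 2991 genes higher and 1572 lower.

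The authors' deposited table for the same comparison lists 2202 genes, 1097 higher and 1105 lower in snf2del, all with an adjusted p under 0.05. Of these, 2162 were tested here, all 2162 changed in the same direction, and 2093 (96.8%) were also called, which is 44.5% of the 4708 calls made here. The log2 change in the authors' deposited table was lower than the one from TPM by a median of 0.26 (-0.26). For SER3 the authors' deposited table gives a log2 change of 3.34 ± 0.21, for YHB1 -5.53 ± 0.17 and for SED1 2.61 ± 0.14.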

How the data were processed

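Poly(A) RNA of 21 strand-specific libraries was sequenced. The submitters' processing notes name the tools HISAT2, DESeq2 and StringTie and the genome builds R64 and sacCer3, all without versions, and how reads were counted is not given in the sources used here. The authors deposited TPM for 6407 genes in one table, in which 1 line is empty. Their deposited table for snf2del against SNF2 holds a mean normalized signal, log2 changes with SE, a test score and p-values, per the file headers, and lists only genes with an adjusted p under 0.05. The other 4 deposited comparison tables were not used. TPM keeps no depth, so no counting interval was computed and no count model was run.

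Levels were tested as log2(TPM + 1) with limma 3.58.1 (trended, robust moderation; statmod 1.5.0; R 4.3.3) over 6394 genes in the 6 libraries, with p-values adjusted by Benjamini and Hochberg over all genes. The difference of the Snf2 and Swi3 effects was fitted over 6403 genes in 12 libraries. The fits were run on simulated data in which a small part of the genes changed, with random signs. Such data differ from these, where most genes were called, and cannot test how scaling sets the balance of rises and falls. With 3 libraries against 3 an exact permutation test cannot go below p = 0.1, so none was used. Gene lists are described by counts and medians without a test. Positions, promoter windows and sequences come from the R64 annotation and genome, matched by name for 5951 of the 6407 genes and not for 456, and near-identical copies were found with BLAST 2.17.0 (at least 90% identity over at least 100 bases). Tables were made with Python 3.11.15, numpy 2.4.6, pandas 2.3.3 and matplotlib 3.10.9.

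Genes were named where they belonged to a given set, were among the 10 largest rises or falls (called, 2-fold or more, at least 10 TPM, groups not overlapping), were among the 4 called members of a list with the smallest p, stood apart from their list, were among the 5 largest differences of effect per sign, had the 5 largest SDs, or were the 5 uncalled genes nearest to no change. Further list members named beside these, and the lists of daughter separation, vacuolar proteases and Ty frames, were chosen after values had been seen. The chromosome IV stretch is bounded by genes with a called difference of effect. Some list members are not reported here. The members and all lists were chosen with earlier results of these data known. The alternatives were pseudocounts of 0.1 and 5, no minimum level, a minimum of 5 TPM, median-ratio scaling, quantile normalization, plain moderation, a fit with the point mutants, SWI3 as control, a replicate block, leaving out each library, and leaving out chromosome ends and a stretch of chromosome IV. The replicates were cultures of separate days, but the labels do not say that equal numbers share a day.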

Additional observations from a re-analysis of the deposited data

Results flagged for a closer look

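For 14 named genes the effect of losing Snf2 (snf2del against SNF2) differed from that of losing Swi3 (swi3del against SWI3) by limma's test of the difference itself, adjusted over 6403 genes. Values are the Snf2 effect minus the Swi3 effect on the log2 scale, from 3 libraries per group. The differences were positive for SWI3 (4.67), which is deleted in swi3del, ADH7 (3.72), IMD2 (1.77), YGP1 (1.11), PHO11 (0.97), PHO12 (0.92) and SER3 (0.58). They were negative for SNU56 (-1.35), FIT2 (-1.26), AQR1 (-0.95), LYS4 (-0.84), SIR4 (-0.79), MET3 (-0.77) and ADR1 (-0.73). ADH7, IMD2, PHO11 and PHO12 lie near chromosome ends, and SNU56, LYS4, SIR4 and ADR1 in the chromosome IV stretch where the 2 wild-type groups themselves differed. PHO11 and PHO12 are near copies and are not separate observations. With the ends and the stretch left out of the fit, SER3, FIT2 and AQR1 were not called (limma adjusted p = 0.0769, 0.0982 and 0.0696). Groups of 3 libraries are too small for a test of single outlying samples.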

How the results depend on the processing

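Of 4708 calls in snf2del against SNF2, 3921 were also made after median-ratio scaling, with 0 called in the opposite direction, and 3734 after quantile normalization, with 13 called opposite. Median-ratio scaling gave 2361 genes lower and 660 lower by 2-fold or more, in place of 1548 and 396, and quantile normalization gave 2494, 667 and 736 higher by 2-fold or more, in place of 1266. Leaving out each library in turn gave 2910 to 3095 genes higher and 1424 to 1572 lower, 1184 to 1278 and 364 to 433 of them by 2-fold or more. The difference of the Snf2 and Swi3 effects was then called positive for 49 to 73 genes and negative for 45 to 53 (24 to 34 and 15 to 20 by 2-fold or more). Without the chromosome ends and the chromosome IV stretch it was called positive for 3 and negative for 2 genes, 3 and 1 by 2-fold or more, and with a pseudocount of 5 the 2-fold numbers were 16 and 9 in place of 27 and 16.

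Over 159 named genes and all alternatives, 2803 of 2863 values had the same direction and the same side of the threshold, 30 were no longer called, 13 were newly called and 17 turned sign. The fold change moved by over 1.5 times in 14 named genes against the SWI3 libraries, in 14 after quantile normalization and in 13 with a pseudocount of 5. The values that turned sign after median-ratio scaling and quantile normalization were -0.18 and -0.10 for SER33 and -0.11 and -0.076 for PHO8. PGK1 was at -0.091 after median-ratio scaling and HHT2 at 0.33 after quantile normalization. Against the SWI3 libraries CTS1 was at 0.039, PGK1 at -0.021, HHT2 at 0.075, SIR4 at 0.078 and FIT2 at 0.69. Leaving out single libraries gave -0.32 to 0.018 for MFA2, -0.12 to 0.019 for SWI5, -0.11 to 0.058 for CTS1 and -0.13 to 0.048 for HHT2. The cause was not tested.

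With the replicate number as a block 3102 genes were higher and 1495 lower, and among the named genes RPL22A, ADA2 and NCE103 were no longer called (adjusted p = 0.0626, 0.0607 and 0.0668). Same-numbered libraries of the 2 groups did not deviate together, with correlations of 0.005, -0.015 and -0.186 across genes, so the numbers were not taken as pairs.

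The deposited TPM keep no read numbers, so the precision of low levels is unknown. A change in total RNA per cell cannot be seen in values that sum to a fixed total per library.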

Other observations

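Several gene groups that the comparison of snf2del with SNF2 had not yet covered changed as well. Of 25 genes of ergosterol synthesis, the pathway of the main sterol of yeast membranes, 17 rose and 5 fell (median log2 change 0.72 beside 0.26 over all genes). MVD1, an enzyme of the mevalonate part of the pathway, rose from 320.4 ± 11.6 to 906 ± 70.4 TPM (log2 1.49 ± 0.08, limma adjusted p = 2.48e-07, n = 3), and the sterol isomerase ERG2 from 1159 ± 101 to 2859 ± 37.1 TPM (adjusted p = 7.91e-07). UPC2, a transcriptional activator of the same pathway, fell from 23.2 ± 2.03 to 6.41 ± 0.856 TPM (log2 -1.71 ± 0.13, adjusted p = 1.75e-06; -0.91 against the SWI3 libraries as control and -2.36 after quantile normalization). In the list of 23 genes of defence against peroxide and superoxide 15 rose and 3 fell (median 0.60), the largest fall being that of YHB1. PRX1, the mitochondrial peroxiredoxin, stood at 21.0, 20.2 and 21.4 TPM in SNF2 and 135, 131 and 125 TPM in snf2del (log2 2.58 ± 0.07, adjusted p = 6.24e-09), with no overlap between the groups, and the mitochondrial superoxide dismutase SOD2 rose from 106 ± 10.6 to 269 ± 18.5 TPM (adjusted p = 8.89e-07).

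Nucleotide and metal genes were mixed. Of 13 purine genes 4 rose and 7 fell (median log2 change -0.21): ADE3, a folate enzyme that feeds purine synthesis, rose from 299.9 ± 33.5 to 757 ± 42.0 TPM (adjusted p = 1.12e-06), and ADE12, which makes the precursor of AMP, fell from 259 ± 29.0 to 143 ± 4.93 TPM (adjusted p = 1.61e-05). SML1, the protein inhibitor of ribonucleotide reductase, rose from 735 ± 83.5 to 2049 ± 184 TPM (log2 1.48 ± 0.10, adjusted p = 1.3e-06), while RNR1, the large subunit of that enzyme, fell from 216 ± 24.5 to 157 ± 5.97 TPM (adjusted p = 0.00113). Of 10 zinc genes 5 rose and 4 fell (median 0.63); the high-affinity zinc transporter ZRT1 was among the falls, from 83.2 ± 6.87 to 49.6 ± 6.23 TPM (adjusted p = 0.000131). CAR1, arginase, rose from 104 ± 1.98 to 330.1 ± 50.7 TPM (adjusted p = 8.03e-07), in the same libraries as the rise of the arginine synthesis gene ARG4.

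Of 14 genes of silent chromatin 5 rose and 5 fell (median log2 change -0.03; 2 rose and 8 fell after median-ratio scaling). SIR2, the deacetylase of silencing, fell from 35.0 ± 1.51 to 20.7 ± 1.43 TPM (log2 -0.73 ± 0.08, adjusted p = 3.32e-05) and its partner SIR4 from 38.5 ± 3.58 to 20.4 ± 2.63 TPM (log2 -0.89 ± 0.11, adjusted p = 5.24e-05). SIR4 lies in the chromosome IV stretch where the 2 wild-type groups differed, and against the SWI3 libraries its log2 change was 0.08 (adjusted p = 0.535), while that of SIR2 was -0.60 (adjusted p = 0.000172). The part of SIR2 in the rise of genes near chromosome ends was not tested. Of 18 genes of the pheromone response and haploid cells 6 rose and 4 fell (median 0.15; 5 and 5 after median-ratio scaling, median -0.11). GPA1, the G protein alpha subunit of the pathway, fell from 80.4 ± 2.17 to 42.3 ± 1.81 TPM (adjusted p = 1.94e-06), and PRM5, which pheromone and wall stress both induce, rose from 48.6 ± 3.19 to 287 ± 28.2 TPM (log2 2.54 ± 0.09, adjusted p = 2.9e-08).

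The paralogs ICY2 and ICY1 went opposite ways, ICY1 being the 1 fall in a list of 7 genes of which 6 rose. ICY2 stood at 52.5, 52.6 and 59.9 TPM in SNF2 and 848, 779 and 849.5 TPM in snf2del (log2 3.89 ± 0.08, adjusted p = 1.96e-09), and its paralog ICY1 at 70.4, 59.6 and 42.0 and 21.4, 21.5 and 31.9 TPM (log2 -1.16 ± 0.23, adjusted p = 0.00262). The uncalled genes of at least 10 TPM nearest to no change in snf2del were RUF5-2, PDS1, CBF2, YBR137W and HCS1, relative to the deposited scale; PDS1, CBF2, YBR137W and HCS1 were called lower after median-ratio scaling, which lowers the median of all genes.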
